A study of Mus musculus with 6 samples.

Results

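The transcripts of the pyruvate dehydrogenase complex and of the enzymes that switch it off and on were examined in cardiomyocytes (CMs) of adult mice. The group holds 10 genes of the 16448 in the deposited table and was chosen by name. It comprises *Pdha1*, *Pdhb*, *Dlat* and *Pdhx* for subunits, *Pdk1*, *Pdk2*, *Pdk3* and *Pdk4* for the kinases, and *Pdp1* and *Pdp2* for the phosphatases. CMs were isolated from 3 CtrlCre and 3 Cpt1bcKO mice, all C57BL/6 and aged 8 to 12 weeks. Cpt1bcKO mice carry floxed *Cpt1b* alleles and the αMHC-Cre transgene, whose promoter drives Cre recombinase in CMs from embryonic stages on, so that long-chain fatty acids can no longer enter mitochondria through CPT1B. CtrlCre mice carry the same transgene with intact *Cpt1b*, so any effect of Cre itself is shared by both groups. The comparison asks how the gate between glycolysis and the Krebs cycle is expressed in CMs that lack CPT1B. The CMs came from digested ventricles and were enriched by low-speed centrifugation, without a sort for a cell type.

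Pyruvate dehydrogenase is the mitochondrial complex that converts pyruvate into acetyl-CoA, and it is the step at which carbon from glucose is committed to oxidation. The E1 subunits decarboxylate pyruvate, E2 passes the acetyl group to coenzyme A, E3 reoxidizes the lipoyl arm of E2, and the E3-binding protein holds E3 in place. Kinases of the PDK family phosphorylate the E1 alpha subunit and thereby inactivate the complex, whereas the phosphatases PDP1 and PDP2 remove the phosphate and reactivate it. In heart, *Pdk4* is known as the kinase whose transcription follows fatty acid supply, fasting and glucocorticoids, through PPAR receptors, FoxO factors and the glucocorticoid receptor, whereas *Pdk1* is known as a HIF1 target.

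The deposited values are read counts per gene, scaled by the authors with a sample factor and rounded to whole numbers, and are termed normalized counts here. They summed to between 13393411 and 31722217 per sample, and to between 3146414 and 3551692 without mitochondrial-encoded and rRNA genes. The mitochondrial rRNA gene *mt-Rnr2* made up 64.6, 64.4 and 63.2% of the sum in CtrlCre samples 1, 2 and 3. In Cpt1bcKO samples 1, 2 and 3 its share was 61.8, 72.6 and 80.8%. In 4 samples the spacing of low values gave about 14900000 to 24500000 counted reads, with 1 read worth 0.682 to 1.29. Differences were tested on the log2(value + 1) scale with limma in the 11364 genes that reached a value of 10 in 3 or more samples, and *P* values were adjusted over all of these with the Benjamini–Hochberg method. At an adjusted *P* value below 0.05, 1.57% of the genes tested were called (75 higher and 103 lower in Cpt1bcKO CMs). Scaling to the sum without mitochondrial-encoded and rRNA genes called 102 genes higher and 74 lower, with a median over all genes of 0.11 (log2) in place of −0.0013. At an unadjusted *P* value below 0.05, the threshold used in the study, 13.9% were called (757 higher and 821 lower). With scaling to the sum without mitochondrial-encoded and rRNA genes, these counts were 1221 higher and 500 lower of 11246 genes tested. The groups did not overlap in 18.7% of the genes tested. The targeted *Cpt1b* had 893 to 1861 normalized counts in CtrlCre and 211 to 353 in Cpt1bcKO CMs. All 3372 exon bases of *Cpt1b* lie within the span of *Gm44502*, a protein-coding gene annotated on the same strand and not listed. Its bearing on these counts was not tested. *Xist*, transcribed from the inactive X chromosome of females, had 957 and 1080 normalized counts in sample 1 of the CtrlCre and Cpt1bcKO groups and 23 to 78 in the other 4 samples, so the members were also fitted in the samples numbered 2 and 3 alone, an alternative chosen after the data had been seen.

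The identity of the samples was checked against marker genes. The 10 CM markers summed to 594639 to 679588 normalized counts in CtrlCre and 405288 to 611699 in Cpt1bcKO samples, and their most abundant gene was *Ttn*. Of the 10, 2 were lower at an unadjusted *P* value below 0.05 in limma (beside 7.22% of all genes tested), *Tnni3* and *Pln* (named after their values had been seen). Atrial markers summed to 146 to 265 in CtrlCre and 477 to 720 in Cpt1bcKO samples, and *Nppa*, which encodes atrial natriuretic peptide, was called higher. The groups overlapped in the other atrial markers listed, *Myl7* and *Myl4* (named after their values had been seen). *Myl7* had 2, 5 and 19 in CtrlCre and 7, 9 and 10 in Cpt1bcKO samples, and *Myl4* 16, 48 and 102 and 30, 67 and 83. The higher atrial sum was thus that of *Nppa*. Fibroblast markers summed to 1104 to 1470 in CtrlCre and 1866 to 2305 in Cpt1bcKO samples. Of 9 tested, 8 were higher at an unadjusted *P* value below 0.05 and 2 at an adjusted one in limma (beside 6.66% and 0.66% of all genes tested). Mural cell markers summed to 3444 to 4824 and 2841 to 3171 in the same order. Of these markers *Abcc9*, a subunit of ATP-sensitive potassium channels that CMs also express, was called lower, and the sums of the other 7 overlapped (605 to 1985 in CtrlCre and 1102 to 1592 in Cpt1bcKO samples). Endothelial markers summed to 1517 to 3195 and 2978 to 3510, and macrophage markers to 145 to 256 and 186 to 205. Of the 10 endothelial markers, 2 were higher at an unadjusted *P* value below 0.05 in limma (beside 6.66% of all genes tested), *Flt1* and *Tie1* (named after their values had been seen). None of the 9 lymphocyte markers was listed. In bulk RNA, a different number of cells of a type and a different amount of RNA per cell cannot be told apart. The part of these other cells in the results on pyruvate dehydrogenase genes was not tested.

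Of the 10 genes, 9 passed the filter on low values, and *Pdk3* did not. No gene of the 9 was called at an adjusted *P* value below 0.05 in limma (0 of 9, beside 1.57% of all genes tested). At an unadjusted *P* value below 0.05, 2 were called, *Pdk4* and *Pdhx*, both higher in Cpt1bcKO CMs, beside 6.66% of all genes tested that were called higher and 7.22% called lower. The median log2 fold change of the 9 genes was 0.019, beside −0.0013 for all genes tested, with 5 positive and 4 negative. *Pdhx* was the member whose groups did not overlap (1 of 9, beside 18.7% of all genes tested).

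**Figure D1:**
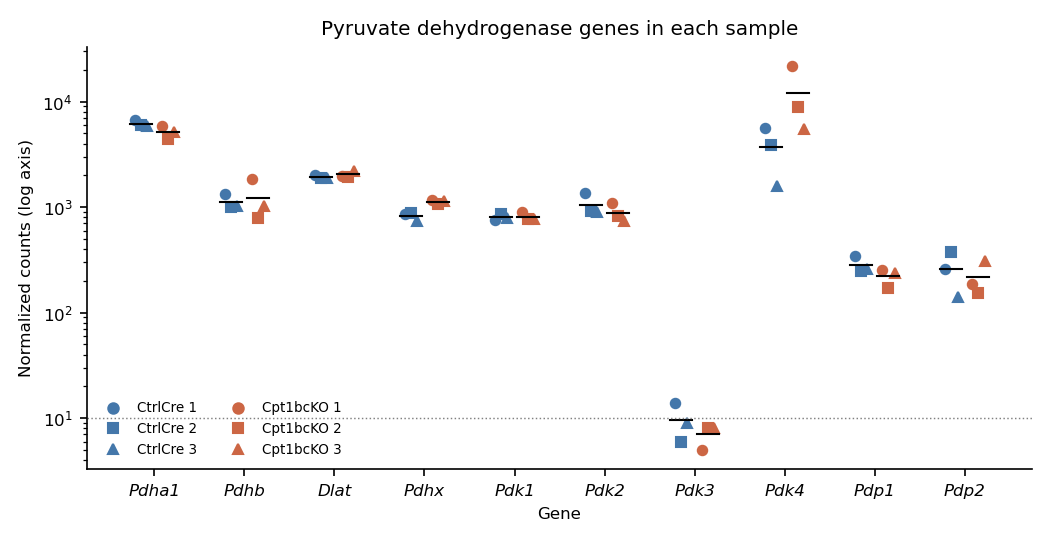
Normalized counts (log axis) of the 10 genes in each of the 6 samples, with CtrlCre in blue, Cpt1bcKO in orange, a symbol for each sample number and a black line at the mean of each group. The dotted line is the filter at a value of 10. *Pdk4* spans 1573 to 21655, whereas the samples of *Dlat* lie between 1879 and 2201, and *Pdk3* has no more than 14.

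*Pdha1* encodes the E1 alpha subunit, which carries the serines that the kinases phosphorylate. It is X-linked (ENSMUSG00000031299, minus strand of chromosome X from 160122209 to 160138413, GRCm38). *Pdha1* had 6744, 5941 and 5824 normalized counts in CtrlCre samples 1, 2 and 3 and 5825, 4468 and 5119 in Cpt1bcKO samples 1, 2 and 3. Sample 1 was the highest of each group, and the groups overlapped only through Cpt1bcKO sample 1, which lay 1 normalized count above CtrlCre sample 3. On the log2 scale the fitted difference was −0.27 (standard error 0.152, 95% confidence interval −0.61 to 0.067, unadjusted *P* = 0.105 and adjusted *P* = 0.462 in limma). In the samples numbered 2 and 3 alone, it was −0.30 (unadjusted *P* = 0.0393 and adjusted *P* = 0.260 in limma). It was smaller, at −0.17, without Cpt1bcKO replicate 2, and at −0.16 with scaling to the sum without mitochondrial-encoded and rRNA genes, where the median of all genes was 0.11. A stretch of 1143 exon bases of *Pdha1* lie within *Map3k15* on the opposite strand, which had a mean of 12.8 normalized counts, and no source used here states whether counting used strand.

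*Pdhb* encodes the E1 beta subunit, which forms the tetrameric E1 enzyme with E1 alpha (ENSMUSG00000021748, minus strand of chromosome 14 from 8165996 to 8173025). It had 1339, 1007 and 1018 normalized counts in CtrlCre samples 1, 2 and 3 and 1846, 787 and 1020 in Cpt1bcKO samples 1, 2 and 3. The highest and the lowest of the 6 values were therefore both from Cpt1bcKO mice, and sample 1 was again the highest of each group. The fit gave a log2 fold change of 0.037 (95% confidence interval −0.56 to 0.64, limma adjusted *P* = 0.970), and its sign depended on which mouse was left out. Without Cpt1bcKO replicate 1 it was −0.31 (limma adjusted *P* = 0.366).

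*Dlat* encodes E2, the acetyltransferase that forms the core of the complex (ENSMUSG00000000168, minus strand of chromosome 9 from 50634633 to 50659780). Its values were 2032, 1879 and 1901 normalized counts in CtrlCre and 1972, 1943 and 2201 in Cpt1bcKO samples 1, 2 and 3. The spread within groups was small. Its within-group SD of 0.082 on the log2 scale was exceeded by all but 2.23% of the genes tested, whose median was 0.31. Among the 1045 genes tested with a mean of 500 or more, as *Dlat* has, the median was 0.20. *Dlat* differed by 0.072 on the log2 scale (limma adjusted *P* = 0.848), and the 95% confidence interval covered fold changes from 0.862 to 1.28. The difference was 0.016 without Cpt1bcKO replicate 3 and 0.13 in the samples numbered 2 and 3 alone.

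*Pdhx* encodes the E3-binding protein, the structural subunit that anchors E3 to the E2 core (ENSMUSG00000010914, minus strand of chromosome 2 from 103021075 to 103073513). It had 866, 873 and 744 normalized counts in CtrlCre samples 1, 2 and 3 and 1176, 1067 and 1137 in Cpt1bcKO samples 1, 2 and 3. Every Cpt1bcKO sample was thus above every CtrlCre sample, as in 9.13% of all genes tested, with the reverse in 9.6%. The means were 828 ± 72.5 and 1127 ± 55.2 (SD, *n* = 3 each), a 1.36-fold difference in the fit with a 95% confidence interval of 1.11 to 1.68. On the log2 scale this was 0.45 with a standard error of 0.135. In limma the unadjusted *P* value was 0.00742 and the adjusted one 0.162, so *Pdhx* did not pass the threshold over all genes. With each mouse left out in turn the log2 fold change stayed between 0.37 and 0.49, and its limma adjusted *P* between 0.154 and 0.417. In the samples numbered 2 and 3 alone it was 0.45 (limma adjusted *P* = 0.140). With scaling to the sum without mitochondrial-encoded and rRNA genes it was 0.56, where the median of all genes was 0.11 (limma adjusted *P* = 0.0796).

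E3 itself is encoded by *Dld* and is shared with the 2-oxoglutarate and branched-chain 2-oxoacid dehydrogenases, so it is no member of the group. *Dld* had 2177, 2351 and 2173 normalized counts in CtrlCre and 2101, 1957 and 1985 in Cpt1bcKO samples 1, 2 and 3. The groups did not overlap, with Cpt1bcKO lower, as in 9.6% of all genes tested. The log2 fold change was small (−0.15, 95% confidence interval −0.43 to 0.13, limma adjusted *P* = 0.650). The E3-binding protein and E3 therefore lay on opposite sides of 0, and neither passed the threshold.

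*Pdk4* (ENSMUSG00000019577, minus strand of chromosome 6 from 5483351 to 5496309) had the largest fold change of the group. It had 5605, 3909 and 1573 normalized counts in CtrlCre samples 1, 2 and 3 and 21655, 8824 and 5458 in Cpt1bcKO samples 1, 2 and 3. The samples differed widely within each group. Sample 1 was the highest and sample 3 the lowest of each, and the groups overlapped because CtrlCre sample 1 (5605) was just above Cpt1bcKO sample 3 (5458). The fitted fold change was 3.12, with a 95% confidence interval of 1.42 to 6.85. The log2 fold change of 1.64 (standard error 0.513) exceeded in size those of 98.7% of the genes tested. The within-group SD of *Pdk4*, 0.98 on the log2 scale, exceeded those of 97.1% of the genes tested. Its unadjusted *P* value was 0.00915 and its adjusted *P* value 0.179 in limma.

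Without sample 1 of both groups, *Pdk4* had 3909 and 1573 normalized counts in CtrlCre and 8824 and 5458 in Cpt1bcKO CMs, so that the remaining samples did not overlap. The log2 fold change was then 1.48 (limma adjusted *P* = 0.0758). With each mouse left out in turn, the log2 fold change lay between 1.09, without Cpt1bcKO replicate 1, and 2.09, without Cpt1bcKO replicate 3, at limma adjusted *P* values from 0.108 to 0.424. Without CtrlCre replicate 3 it was 1.12. The log2 fold change was above 0 in each of these fits, and its adjusted *P* value was above 0.05 in each.

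*Pdk2*, the kinase found in most tissues, had 1346, 922 and 903 normalized counts in CtrlCre and 1088, 822 and 740 in Cpt1bcKO samples 1, 2 and 3 (ENSMUSG00000038967, minus strand of chromosome 11 from 95026258 to 95041354). Sample 1 was again the highest of each group. The fit gave −0.25 on the log2 scale (95% confidence interval −0.69 to 0.19, limma adjusted *P* = 0.618), and single mice moved it from −0.41, without Cpt1bcKO replicate 1, to −0.066, without CtrlCre replicate 1. An annotated antisense gene within *Pdk2*, *Gm11513*, covers none of its exons and had a mean of 2.67 normalized counts.

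*Pdk1*, the kinase known as a hypoxia-responsive member (ENSMUSG00000006494, plus strand of chromosome 2 from 71873224 to 71903858), was measured at 753, 856 and 795 normalized counts in CtrlCre and 900, 766 and 773 in Cpt1bcKO samples 1, 2 and 3. The groups overlapped almost fully. *Pdk1* had a log2 fold change of 0.019, with a 95% confidence interval from −0.29 to 0.32 (limma adjusted *P* = 0.970), and it was −0.056 without Cpt1bcKO replicate 1. *Pdk3*, an X-linked kinase (ENSMUSG00000035232, minus strand of chromosome X from 93764607 to 93832201), had 14, 6 and 9 normalized counts in CtrlCre and 5, 8 and 8 in Cpt1bcKO samples. At this level a difference was not detectable. Without a filter its log2 fold change was −0.37, with a 95% confidence interval from −1.46 to 0.72.

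Per kb of exon, the phosphatases were the least abundant members apart from *Pdk3*. *Pdp1*, the calcium-stimulated phosphatase of muscle (ENSMUSG00000049225, minus strand of chromosome 4 from 11958184 to 11966452), was measured at 346, 247 and 257 normalized counts in CtrlCre and 251, 173 and 237 in Cpt1bcKO samples 1, 2 and 3. The groups overlapped, with Cpt1bcKO sample 1 between the lower CtrlCre values. *Pdp1* had a log2 fold change of −0.36 (95% confidence interval −0.81 to 0.081, unadjusted *P* = 0.0987 and adjusted *P* = 0.451 in limma), which was −0.20 without Cpt1bcKO replicate 2 and −0.21 without CtrlCre replicate 1. *Pdp2*, the phosphatase not regulated by calcium (ENSMUSG00000048371, plus strand of chromosome 8 from 104591451 to 104599026), was measured at 258, 376 and 140 normalized counts in CtrlCre and 186, 153 and 309 in Cpt1bcKO samples 1, 2 and 3. Its values were scattered within each group, and sample 3 was the lowest of the CtrlCre and the highest of the Cpt1bcKO samples. For *Pdp2* the fit gave −0.21 (log2, 95% confidence interval −0.98 to 0.57, limma adjusted *P* = 0.837), and it was 0.12 without CtrlCre replicate 2.

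**Figure D2:**
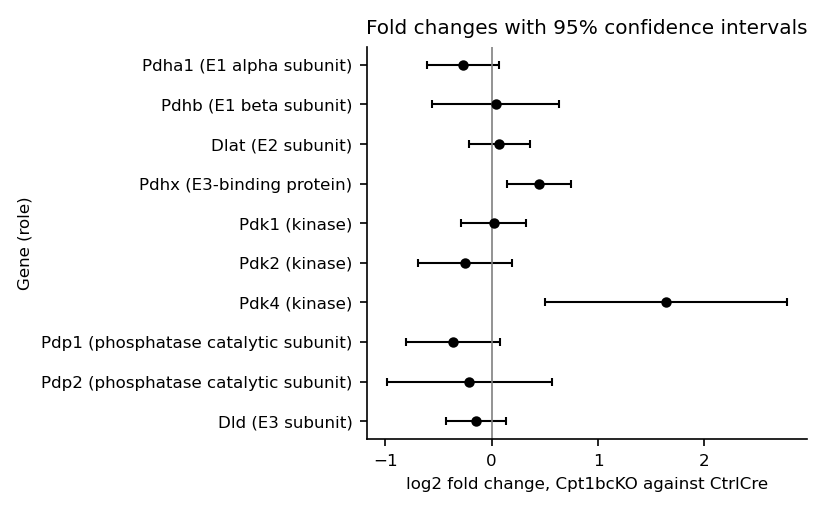
Fitted log2 fold change of Cpt1bcKO against CtrlCre (points) with its 95% confidence interval from limma (bars) for the 9 tested members and *Dld*. The intervals of *Pdk4* (0.50 to 2.78) and *Pdhx* (0.15 to 0.75) lie above 0, and the others cover 0.

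To compare the members with each other, the normalized counts were divided by the length of all annotated exons of the gene in kb. On this scale *Pdha1* was the most abundant member in CtrlCre CMs, with 1652 ± 134 normalized counts per kb (SD, *n* = 3), followed by *Pdk4* with 1053 ± 577. These neighbours in the order overlapped, since CtrlCre sample 1 had 1596 for *Pdk4* and CtrlCre sample 3 had 1560 for *Pdha1*. *Dlat* had 396.5 ± 16.9, *Pdk2* 334 ± 79.2, *Pdhb* 290.4 ± 48.8 and *Pdhx* 211 ± 18.5. *Pdk2* overlapped with both *Dlat* and *Pdhb* across the CtrlCre samples. The lower end was made up by *Pdk1* with 103 ± 6.66, *Pdp1* with 62.9 ± 12.1, *Pdp2* with 45.3 ± 20.7 and *Pdk3* with 3.77 ± 1.58, of which *Pdp1* and *Pdp2* overlapped. In Cpt1bcKO CMs *Pdk4* was first with 3412 ± 2434, and *Pdha1* had 1376 ± 182.

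*Pdk4* thus held the largest share of kinase transcripts in both groups. It made up 75.2%, 73.4% and 53.4% of the summed level of the 4 kinases per kb in CtrlCre samples 1, 2 and 3 and 93.0%, 87.4% and 82.2% in Cpt1bcKO samples 1, 2 and 3. The groups did not overlap in this share. *Pdk2* held 20.0%, 19.2% and 34.0% in CtrlCre and 5.19%, 9.04% and 12.4% in Cpt1bcKO samples, and *Pdk3* no more than 0.419% in any sample. The kinases other than *Pdk4* summed to 391 to 528 per kb in CtrlCre and 336 to 462 in Cpt1bcKO samples, so the range of the kinase sum, from 839 in CtrlCre sample 3 to 6629 in Cpt1bcKO sample 1, was that of *Pdk4*. These shares are descriptions, given without a test.

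**Figure D3:**
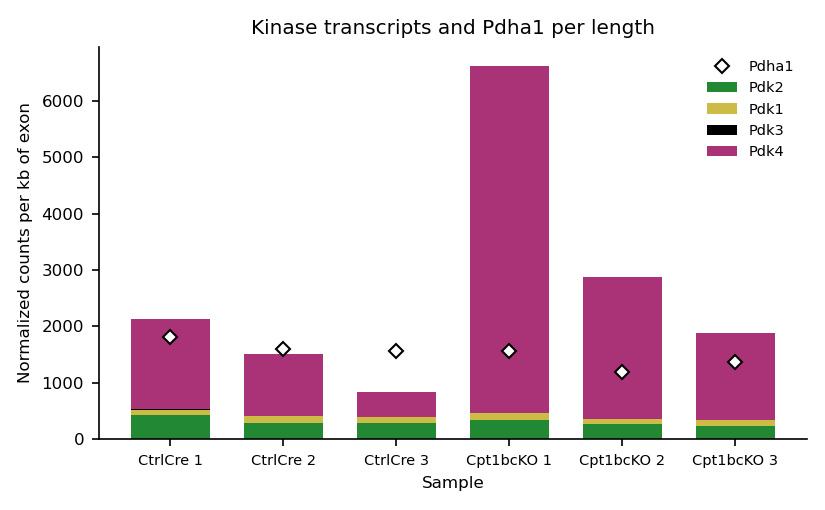
Stacked bars give the normalized counts per kb of exon of *Pdk2*, *Pdk1*, *Pdk3* and *Pdk4* in each sample, and diamonds give *Pdha1*. The kinase sum lies above *Pdha1* in CtrlCre sample 1 (2124 against 1806) and in all 3 Cpt1bcKO samples (CtrlCre sample 1 lies just below with the longest transcript as length), and *Pdk3* is too low to be seen.

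Set against the substrate, the kinase sum per kb was 1.18, 0.954 and 0.538 times the level of *Pdha1* in CtrlCre samples 1, 2 and 3 and 4.25, 2.40 and 1.38 times in Cpt1bcKO samples 1, 2 and 3. The ranges did not overlap, and the lowest Cpt1bcKO value was near the highest CtrlCre value. With the longest transcript as length, the ratio in CtrlCre sample 1 was 0.997, below 1. The kinase sum was 17.4, 12.6 and 10.3 times the phosphatase sum in CtrlCre and 75.0, 44.0 and 17.7 times in Cpt1bcKO samples, again with the lowest Cpt1bcKO value next to the highest CtrlCre value. Among the structural subunits, the ratio of *Pdhx* to *Dlat* per kb was 0.530, 0.578 and 0.487 in CtrlCre and 0.741, 0.683 and 0.642 in Cpt1bcKO samples. Transcript ratios are not protein ratios, and phosphorylation of E1 alpha was not measured here. On blots of *Cpt1b*-deficient CMs, the study reported a rise of PDH1A and none of its inhibitor PDK4. It also reported more flux of labelled glucose into Krebs cycle metabolites in perfused hearts. The transcripts had log2 fold changes of −0.27 (*Pdha1*) and 1.64 (*Pdk4*), neither called after adjustment. How transcript and protein levels relate was not tested.

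The members were also compared in the sequence around their start. RefSeq (GRCm38.p6) gave windows of 300 bases for 9 of the 10 genes, with more than 1 window for *Pdk1* and *Pdk2*. CpG dinucleotides numbered 35 in the window of *Pdk3*, 28 in *Pdhx*, 25 in the first windows of *Pdk1* and *Pdk2*, 24 in *Pdhb*, 21 in *Pdha1*, 18 in *Dlat*, 14 in *Pdp2* and 12 in *Pdk4*, against a median of 7 over all 32851 windows. *Pdk4* thus had the fewest among the first windows, although more than 60.4% of all windows. The bases upstream of the annotated starts of *Pdk4*, the member with the largest fold change, and of *Dlat*, the member with the smallest within-group spread, are shown with each CpG in capitals, 5′ to 3′ on the minus strand (*Pdk4* chr6:5496310-5496528, 219 bases with 6 CpG; *Dlat* chr9:50659781-50660030, 250 bases with 15 CpG).
Pdk4: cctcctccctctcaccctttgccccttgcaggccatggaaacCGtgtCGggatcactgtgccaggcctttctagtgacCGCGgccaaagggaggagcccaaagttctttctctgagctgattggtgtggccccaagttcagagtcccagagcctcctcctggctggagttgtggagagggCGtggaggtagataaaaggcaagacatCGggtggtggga
Dlat: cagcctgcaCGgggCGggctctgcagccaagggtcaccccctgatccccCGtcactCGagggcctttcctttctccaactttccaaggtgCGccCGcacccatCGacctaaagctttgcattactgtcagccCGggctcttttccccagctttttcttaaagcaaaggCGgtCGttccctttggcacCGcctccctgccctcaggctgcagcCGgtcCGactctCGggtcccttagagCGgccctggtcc
The letters of motifs of factors known to act on *Pdk* genes were searched on both strands of the 300-base windows. AGGTCA, the half-site of nuclear receptors, is in 16.3% of all windows, TCAAGGTCA, the motif of estrogen-related receptors that contains it, in 0.423%, GTAAACA, a FoxO motif, in 3.65%, and ACGTG, the core of HIF motifs, in 19.6%. Among the members the search found ACGTG in the windows of *Pdp2*, *Pdk2*, *Pdhb* and *Pdk3*, and none of these letters in that of *Pdk4*. This says only that these letters are not in this window.

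Genes around the complex were read out of the same fit in 7 lists. Of 17 complex partners (E3, lipoate and iron–sulfur assembly, thiamine supply and the mitochondrial pyruvate carrier), 14 were tested, and 0 were called at an adjusted and 3 at an unadjusted *P* value below 0.05, all 3 higher (beside 6.66% of all genes tested). The median log2 fold change was 0.11. *Iba57*, an iron–sulfur assembly factor needed for lipoate synthesis, had 92, 67 and 40 normalized counts in CtrlCre and 128, 163 and 115 in Cpt1bcKO samples 1, 2 and 3. Its log2 fold change was 1.08 (limma adjusted *P* = 0.118). With single mice left out it was 0.76 to 1.35 and was not called (limma adjusted *P* from 0.0633 to 0.443). In the samples numbered 2 and 3 alone it was called (1.39, limma adjusted *P* = 0.0496). *Slc19a2*, a thiamine transporter, had 50, 61 and 34 in CtrlCre and 97, 73 and 87 in Cpt1bcKO samples, a log2 fold change of 0.84 (limma adjusted *P* = 0.169).

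Genes that use or move pyruvate outside the complex held the lactate genes. Of 12 listed, 11 were tested, with 3 positive and 8 negative log2 fold changes and a median of −0.16. At an adjusted *P* value below 0.05, 2 were called, both lower (beside 0.66% higher and 0.906% lower among all genes tested), and at an unadjusted one 2 higher and 4 lower (beside 6.66% and 7.22%). *Ldha*, which encodes the lactate dehydrogenase subunit that favours lactate formation, fell from 1238, 1090 and 1164 normalized counts in CtrlCre to 799, 736 and 734 in Cpt1bcKO samples, a log2 fold change of −0.62 (limma adjusted *P* = 0.0477). *Slc16a1*, which encodes the lactate and pyruvate transporter MCT1, fell from 1690, 1673 and 1526 to 1176, 953 and 902, a log2 fold change of −0.70 (limma adjusted *P* = 0.0461). Both adjusted *P* values were close to the threshold. Of the 6 fits that left out a mouse, 5 lost each call and the fit without Cpt1bcKO replicate 1 kept it, with limma adjusted *P* of 0.0349 to 0.230 for *Ldha* and 0.0139 to 0.232 for *Slc16a1*. With scaling to the sum without mitochondrial-encoded and rRNA genes, the log2 fold changes were −0.51 and −0.59 (limma adjusted *P* = 0.103 and 0.1000), where the median of all genes was 0.11. A single prior variance also ended both calls (limma adjusted *P* = 0.187 for each), and median-of-ratios scaling that of *Ldha* (limma adjusted *P* = 0.0565).

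The 2-oxoglutarate and branched-chain 2-oxoacid dehydrogenases are built like pyruvate dehydrogenase, and the latter has a kinase (*Bckdk*) and a phosphatase (*Ppm1k*) of its own. All 9 listed genes were tested, with a median log2 fold change of 0.016, and 1 was called at an adjusted and 2 at an unadjusted *P* value below 0.05, all lower (beside 0.906% and 7.22% of all genes tested). *Ppm1k* fell from 1301, 1226 and 1319 normalized counts in CtrlCre to 425, 451 and 604 in Cpt1bcKO samples 1, 2 and 3. All Cpt1bcKO values were far below all CtrlCre values. The fitted difference was −1.39 on the log2 scale (standard error 0.160, limma adjusted *P* = 0.00338), and ranged from −1.55 to −1.29 when single mice were left out. The call was lost with a single prior variance for all genes (limma adjusted *P* = 0.0532). Its kinase partner *Bckdk* had a log2 fold change of 0.016 (95% confidence interval −0.38 to 0.42), and was named after its value had been seen. For comparison, the log2 fold changes of the pyruvate dehydrogenase phosphatases *Pdp1* and *Pdp2* were −0.36 and −0.21. Their 95% confidence intervals, −0.81 to 0.081 and −0.98 to 0.57, both cover 0.

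**Figure D4:**
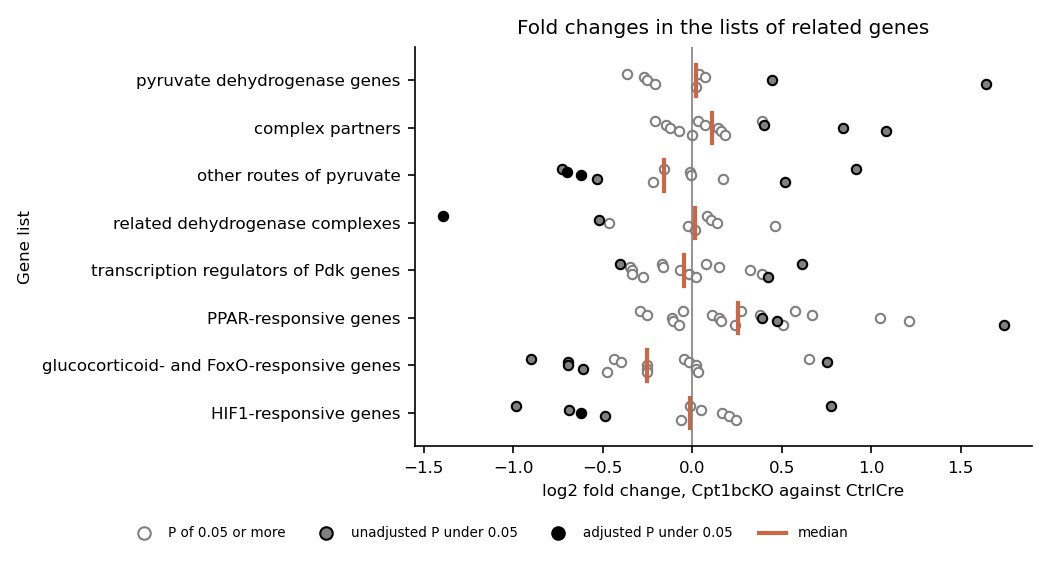
Log2 fold change of Cpt1bcKO against CtrlCre for each tested gene of the pyruvate dehydrogenase group and of the 7 lists of related genes, with open circles for unadjusted *P* values of 0.05 or more, grey for those below 0.05 and black for adjusted *P* values below 0.05, and an orange bar at the median. The black points are *Ldha* (in 2 lists), *Slc16a1* and *Ppm1k*, and *Pdk4* and *Angptl4* lie furthest to the right.

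The regulators of *Pdk* genes and their other targets were described in the same way. Of 16 transcription regulators, all tested, 0 were called at an adjusted and 3 at an unadjusted *P* value below 0.05 in limma (2 higher, 1 lower), beside 13.9% of all genes tested. *Hif1a* had a log2 fold change of 0.62 (limma adjusted *P* = 0.208), which was 0.40 without Cpt1bcKO replicate 1, and *Foxo3* had −0.40 (adjusted *P* = 0.324). Of 22 PPAR-responsive genes, 20 were tested, with 14 positive and 6 negative log2 fold changes and a median of 0.26. None of the 20 was called at an adjusted *P* value below 0.05 in limma, and 3 were at an unadjusted one, all higher (beside 6.66% of all genes tested). *Angptl4*, a secreted inhibitor of lipoprotein lipase that responds to PPAR receptors, had 60, 32 and 5 normalized counts in CtrlCre and 128, 112 and 30 in Cpt1bcKO samples 1, 2 and 3, a log2 fold change of 1.74 (limma adjusted *P* = 0.355). The value moved with single mice, to 0.77 without CtrlCre replicate 3 and to 2.45 and 2.40 without CtrlCre replicate 1 and Cpt1bcKO replicate 3. Like *Pdk4*, it was highest in sample 1 and lowest in sample 3 of each group. *Hadhb*, a subunit of the mitochondrial trifunctional protein of beta-oxidation, had 2600, 2942 and 2131 in CtrlCre and 3420, 4176 and 3063 in Cpt1bcKO samples, a log2 fold change of 0.47 (limma adjusted *P* = 0.239).

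Of 18 glucocorticoid- and FoxO-responsive genes, 17 were tested, with 5 positive and 12 negative log2 fold changes and a median of −0.25. In limma, 0 were called at an adjusted *P* value below 0.05 and 5 at an unadjusted one (1 higher, 4 lower), beside 6.66% and 7.22% of all genes tested. *Klf9*, a transcription factor that responds to glucocorticoids, had 1180, 1097 and 841 normalized counts in CtrlCre and 756, 533 and 637 in Cpt1bcKO samples, a log2 fold change of −0.69 (limma adjusted *P* = 0.102), and with single mice left out the limma adjusted *P* was 0.0362 without Cpt1bcKO replicate 1 and 0.108 to 0.415 in the other 5 fits. *Tsc22d3*, the glucocorticoid-induced leucine zipper, had 172, 142 and 216 in CtrlCre and 114, 116 and 93 in Cpt1bcKO samples, a log2 fold change of −0.70 (limma adjusted *P* = 0.153). Of 15 HIF1-responsive genes, 11 were tested, with 5 positive and 6 negative log2 fold changes and a median of −0.0099. At an adjusted *P* value below 0.05 only *Ldha* was called, which is also in the list on pyruvate, and at an unadjusted one 1 was higher and 4 were lower, beside 0.906% of all genes tested called lower after adjustment and 6.66% higher and 7.22% lower before it.

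The genes with the profile nearest to that of *Pdk4* across the 6 samples were sought among the 6796 genes whose mean reached 50, by the root mean square difference between log2 values centred on each gene's mean. Of the 5 nearest, 4 are reported here. They were *Hsd17b11* (0.45), a lipid droplet dehydrogenase, *Slc25a22* (0.48), a mitochondrial glutamate carrier, *Ucp3* (0.54), a mitochondrial uncoupling protein, and *Hr* (0.57), a transcriptional corepressor. The profile of *Pdk4* itself had a root mean square of 1.14. *Hsd17b11* had 90, 131 and 29 normalized counts in CtrlCre and 417, 323 and 104 in Cpt1bcKO samples 1, 2 and 3. *Ucp3* had 450, 407 and 58 in CtrlCre and 1136, 354 and 237 in Cpt1bcKO samples. As in *Pdk4*, sample 3 was the lowest of each group in these genes. This follows in part from the choice of genes by likeness over the same samples. The likeness was measured over 6 samples, which share libraries and scaling, and is a description.

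**Figure D5:**
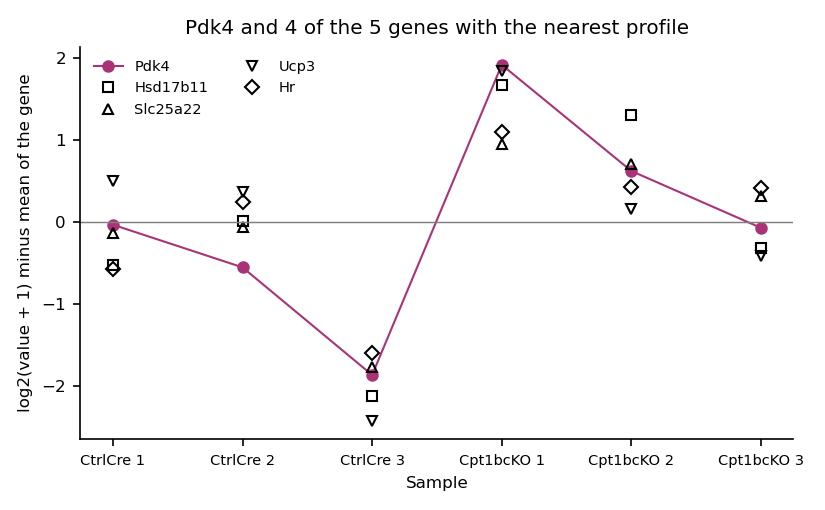
Log2(value + 1) minus the mean of each gene in the 6 samples, for *Pdk4* (filled circles, with a line as a guide) and 4 of the 5 genes with the smallest root mean square difference from it. *Pdk4* and these 4 genes are lowest in CtrlCre sample 3 and highest in Cpt1bcKO sample 1.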

How the data were processed

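RNA-seq libraries of CMs (SMARTer Stranded Total RNA, single-end) were made from 3 CtrlCre and 3 Cpt1bcKO mice. According to the study's methods and the submitters' processing notes, the authors aligned reads with STAR (2.5.4b) to GRCm38.p5, counted those on exons with featureCounts (1.6.0), left out reads on several genes or regions, and scaled with DESeq2 (1.14.1). The deposited signal values are these counts divided by a factor per sample and rounded by the authors, so raw counts could not be recovered and no count test was used. The authors' group means, fold changes and *P* values in the table were not used.

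Genes that reached a value of 10 in 3 or more samples were tested on log2(value + 1) with limma (3.58.1, R 4.3.3; lmFit and eBayes with trend, 2 groups, no covariate) with Benjamini–Hochberg adjustment. The steps were run on simulated counts with changes set in advance, drawn with the same dispersion for every gene and no effect of sample number. This was a check of the steps, not of error rates in these data. Samples were taken as separate mice, as the study's methods describe its replicates. Exon lengths came from GENCODE vM21 (GRCm38), in which all 10 genes had the coordinates of the deposited table. The members and lists were chosen with earlier results of these data known. Named genes are the members, *Cpt1b*, *Dld*, from each list up to 4 genes with an adjusted *P* value below 0.05 or otherwise the 2 with the lowest *P* value, the 5 genes nearest to *Pdk4*, and the most abundant marker of a list. Of these, 1 gene near *Pdk4* is not reported here. Alternatives were other scalings, filters, pseudocounts and prior variances, a block for the sample number, other gene lengths, and leaving out mice.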

Additional observations from a re-analysis of the deposited data

How the results depend on the processing

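With 3 mice in each group, intervals were wide for *Pdk4*, *Pdhb* and *Pdp2*, whose values varied most within groups, and *Pdk3* had no more than 14 normalized counts. Across 15 alternatives the log2 fold changes of *Pdk4*, *Pdhx*, *Dlat*, *Pdha1*, *Pdk2* and *Pdp1* kept their sign, with ranges of 1.09 to 2.09 for *Pdk4* and 0.37 to 0.56 for *Pdhx*. The number of pyruvate dehydrogenase genes called stayed at 0 under each alternative except the sample block. The number of all genes called, 178, was 41 with a single prior variance for all genes, and 42 to 329 with each mouse left out in turn (86, 78 and 68 without CtrlCre replicates 1, 2 and 3, and 329 and 42 without Cpt1bcKO replicates 1 and 2). The causes were not tested. With a single prior variance, the calls of *Ppm1k*, *Cpt1b*, *Ldha* and *Slc16a1* were lost (limma adjusted *P* = 0.0532, 0.0563, 0.187 and 0.187). With scaling to the sum without mitochondrial-encoded and rRNA genes, *Pdk2* was −0.14, *Dlat* 0.18 and *Dld* −0.037. In the samples numbered 2 and 3, *Pdk2* was −0.23, *Pdp1* −0.31 and *Pdp2* −0.078. The signs of *Pdhb*, *Pdk1* and *Pdp2* turned. *Pdhb* was −0.034 and −0.026 without CtrlCre replicates 2 and 3, −0.31 and 0.30 without Cpt1bcKO replicates 1 and 2 and −0.18 in the samples numbered 2 and 3. *Pdk1* was −0.025 and 0.067 without CtrlCre replicates 1 and 2, −0.056 without Cpt1bcKO replicate 1 and −0.10 in the samples numbered 2 and 3. *Pdp2* was 0.12 and −0.59 without CtrlCre replicates 2 and 3 and 0.0066 without Cpt1bcKO replicate 2. With the longest transcript as length, *Pdk4* made up 59.6% of kinase transcripts in CtrlCre and 83.3% in Cpt1bcKO CMs, against 67.3% and 87.6% with all exons.

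Sample numbers are shared by the groups, but the labels do not say that a number marks a litter or a day. Deviations from the group means correlated between same-numbered samples with Pearson's *r* of 0.376, 0.255 and 0.0684 across genes, which are not independent, and between other samples with −0.329 to 0.147, and sample 3 of neither group correlated best with its own number. Deviations from a group mean cancel out within the group, so these correlations are tied to each other. They cannot decide whether the number marks a pairing. *Xist* was high in sample 1 of both groups (957 and 1080, against 23 to 78 in the others). The number was not taken as a pairing in the main fit. With the replicate block, 603 genes were called, among them 2 of the 9 pyruvate dehydrogenase genes, *Pdk4* (log2 fold change 1.64, limma adjusted *P* = 0.000435) and *Pdhx* (0.45, limma adjusted *P* = 0.0449). Of 13 other named genes compared with and without the block, those called with the block alone were *Angptl4*, *Hif1a*, *Klf9*, *Iba57* and *Hadhb* (limma adjusted *P* = 0.00805, 0.0125, 0.0151, 0.0215 and 0.0223).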
